A study of Mus musculus with 72 samples.

Results

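The 9 astrocyte marker genes Gfap, Vim, Aqp4, Aldh1l1, Slc1a2, Slc1a3, Aldoc, S100b and Glul were followed in the brain of mice with and without Gnb5. They were chosen by name, from what is known of the cell type and with earlier results of these data known. All 9 were found among the 53715 gene identifiers of the count tables. The study profiled total RNA of heart and brain tissue from Gnb5 mutant mice in 72 libraries, of which the 36 brain libraries are described here. They fall into 6 groups of 6 libraries: whole cerebellum (Cb), hippocampi of both hemispheres (Hc) and whole cerebral cortex (Co), each from wild-type Gnb5+/+ mice (WT) and from Gnb5-/- mice (KO). All were male, 18 weeks old and untreated, and each of the 12 mice gave all 3 regions. The KO allele is a germline deletion of exon 3 on the C57BL/6J background, so that every cell type carried it, and no heterozygous brain was profiled. Heterozygous Gnb5+/- mice gave atria and ventricles only, which enter the pooled heart levels given near the end. As a check of the labels, the CPM (read counts scaled to a common library size) of Gnb5, which encodes the G-protein beta 5 subunit, lay between 11.9 and 22.0 CPM in the 18 KO libraries and between 96.5 and 156 CPM in the 18 WT libraries.

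Astrocytes are the glial cells that take up glutamate and potassium around synapses, line blood vessels with their endfeet and supply neurons with metabolites. After injury or disease they become reactive, and raised expression of the intermediate filament genes Gfap and Vim is the most widely used sign of that state. Gnb5 protein partners the R7 family of regulators of G-protein signalling in neurons. The questions taken up here were whether astrocyte genes, and above all both filament genes, differed between KO and WT brain, and how they were arranged over the 3 regions. In whole tissue, fewer astrocytes and less RNA per astrocyte cannot be told apart.

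On GRCm38, Gfap lies on chromosome 11 from 102887336 to 102900912, Vim on chromosome 2 from 13573927 to 13582826 and Slc1a2 on chromosome 2 from 102658659 to 102790784. Slc1a3 lies on chromosome 15 from 8634124 to 8710764, Glul on chromosome 1 from 153899944 to 153909723 and Aldoc on chromosome 11 from 78322968 to 78327781. Aldh1l1 lies on chromosome 6 from 90486427 to 90600203, S100b on chromosome 10 from 76253853 to 76261159, and Aqp4 on chromosome 18. All 9 are protein-coding, and their counts cover all annotated exons. S100b overlaps Dip2a and Glul overlaps Teddm2, protein-coding genes on the opposite strand. Gfap, Aldh1l1, Slc1a2 and Slc1a3 overlap noncoding gene models. The library kit keeps strand, but whether counting used it is not given in the sources used here, so reads of Gfap, Aldh1l1, Slc1a2, S100b and Glul cannot be told apart with certainty from those of the opposite strand. The model that overlaps Slc1a3 lies on its own strand, where strand would not separate the reads.

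The brain libraries held between 29204390 and 48807435 reads on genes, with a median of 42339164. Values are CPM after TMM normalization, which scales each library against the others. A set of 3 KO libraries stood apart from all others: Cb replicate 2, Co replicate 3 and Co replicate 5. Their share of reads outside genes was between 6.86% and 8.32%, against 11.7% to 16.97% in the other 33 libraries. Over 15001 genes, the log2 deviation from the WT mean of the region correlated with log2 exon length at r between -0.43 and -0.36 in the 3 libraries, and between -0.21 and 0.16 in the other 33. These correlations are across genes of 1 library, which are not independent replicates.

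Of the 9 genes, the 1 with the longest exons was low in these 3 libraries and the 1 with the shortest was high. Slc1a2, with 13133 exon bases, was between 1.25 and 1.00 log2 units below the WT mean of its region, whereas the other 33 libraries reached at most 0.34 below. S100b, with 1484 exon bases, was between 0.72 and 1.82 log2 units above it, against at most 0.26 elsewhere. Aqp4, with 6233 exon bases, was 2.37 log2 units low in Co replicate 3, at 26.4 CPM. In Co replicate 5 the log2 deviation was -0.24 for Aqp4 and -0.09 for Slc1a3, with 8537 exon bases. Both values lay within the range of the other 33 libraries. Vim and Glul do not follow the order by length: Vim, with 4743 exon bases, was 1.13 log2 units high at most, and the log2 deviation of Glul, with 3323, was between -0.41 and -0.05. Gfap, with 4218 exon bases, stayed within the range of the other libraries in all 3. Markers of other tissue were high in some of them. The summed CPM of 5 choroid plexus markers was 886 in Cb replicate 2, against 12.5 to 19.4 in WT cerebellum, and that of 6 oligodendrocyte markers was 5453, against 2820 to 3808. In Co replicate 5, the granule cell receptor gene Gabra6, named after its values were seen, was at 6.67 CPM, and in Co replicate 4 at 4.99 CPM, whereas WT cortex reached at most 0.33. Co replicate 3 had a choroid plexus sum of 35.9 CPM, within the 16.4 to 294 CPM of WT cortex. Such sums also reached 1575 CPM in WT hippocampus and 717 CPM in a KO cortex library outside the 3. The part of exon length or of other tissue in these deviations was not tested. Several results on the cerebellum and cortex of KO mice are given also from fits without some or all of the 3 libraries. The rest are given with all libraries only. The fits that leave libraries out were chosen after the data were seen.

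**Figure D1:**
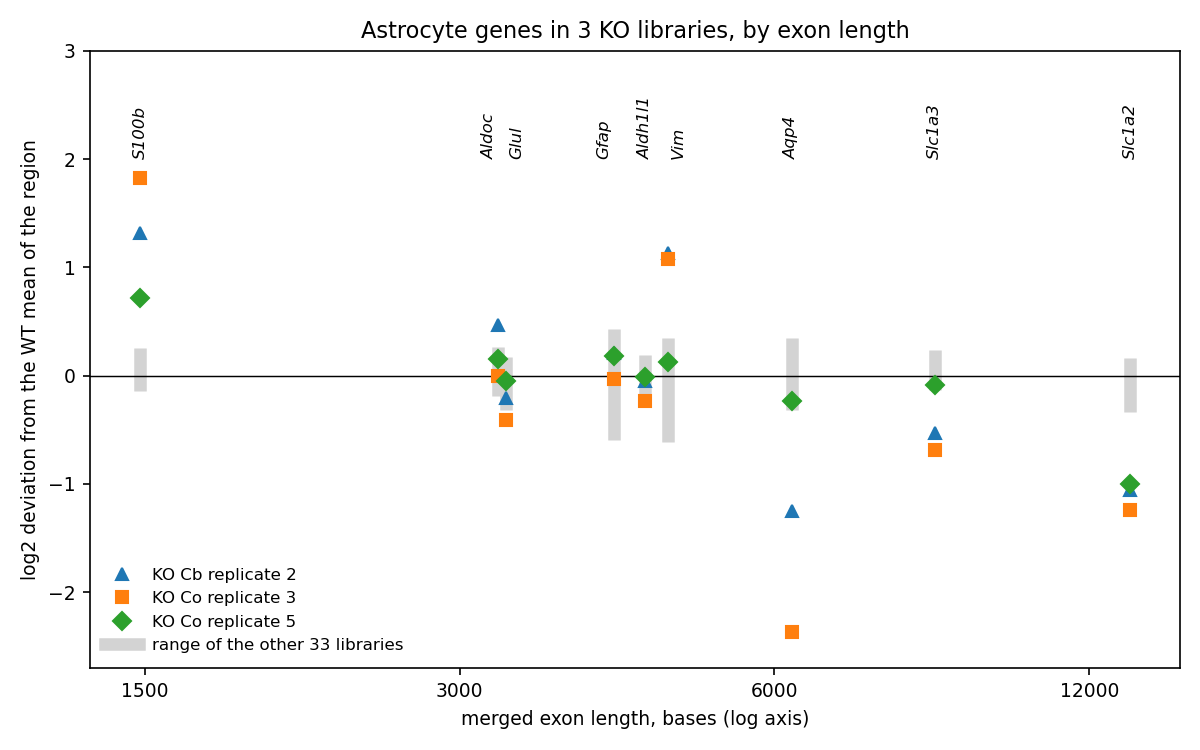
Log2 deviation of each of the 9 genes from the WT mean of its region (vertical axis) against its merged exon length in bases (log axis), for KO Cb replicate 2, KO Co replicate 3 and KO Co replicate 5. Grey bars give the range over the other 33 libraries, each WT library being set against the other WT libraries of its region; Slc1a2 and S100b lie outside their grey bars in all 3 libraries.

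Per kilobase of exon, the scale on which different genes can be compared, the order of the 9 genes changed with the region in WT mice. In the cerebellum Aldoc led at 502 CPM per kb, followed by S100b at 256, Glul at 229 and Slc1a3 at 197. In the hippocampus the highest was Glul at 436 CPM per kb, with Slc1a2 at 303 and Aldoc at 225. In the cortex the same 3 genes led, Glul at 486.5, Slc1a2 at 339 and Aldoc at 250.0 CPM per kb. Both filament genes were far lower than these leading genes. Gfap was at 24.1, 74.1 and 32.5 CPM per kb in cerebellum, hippocampus and cortex, and Vim at 36.7, 8.06 and 7.72. Low values were not particular to them. In the same order, Aldh1l1 was at 15.2, 10.96 and 16.5, below Gfap in every region but above Vim in hippocampus and cortex. Aqp4, at 62.1, 26.3 and 21.9, was below Gfap in hippocampus and cortex. Each region therefore held all the defining markers of astrocytes, and none was near 0 in any brain library.

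Between WT regions the 9 genes did not move as a block. Cerebellum against cortex gave 9 of 9 called by edgeR's quasi-likelihood test at an adjusted p under 0.05, 5 higher and 4 lower in the cerebellum, where 39.2% and 42.0% of the 18577 genes tested were called higher and lower. Hippocampus against cortex gave 2 higher and 5 lower, against 27.3% and 28.6% of all genes. Cerebellum against hippocampus gave 6 higher and 3 lower, against 39.6% and 41.2%. With so many genes called, a call alone says little about astrocyte genes, and the sizes carry the description. The median log2 fold change of the 9 was 1.01, -0.12 and 1.12 in the 3 comparisons, beside -0.02, -0.01 and -0.01 over all genes.

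Gfap, the main filament protein of mature astrocytes, was highest in the hippocampus. In WT mice it lay between 252 and 384 CPM there (median 315), between 95.2 and 166 CPM in the cortex (median 143) and between 75.7 and 121 CPM in the cerebellum (median 102). The hippocampal libraries did not overlap those of the other regions, and cerebellum and cortex overlapped. The log2 fold change was 1.20 ± 0.07 (SE; edgeR adjusted p = 4.5e-10) for hippocampus against cortex and -0.42 ± 0.07 (adjusted p = 5.4e-05) for cerebellum against cortex. In KO mice the order was the same, with 313 to 417 CPM in the hippocampus (median 377), 117 to 171 CPM in the cortex (median 142) and 70.2 to 134 CPM in the cerebellum (median 99.9).

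Vim, the filament protein shared by astrocytes, Bergmann glia, vessel and mesenchymal cells, had the opposite arrangement. It lay between 140.2 and 207 CPM in WT cerebellum (median 178), between 33.3 and 44.5 CPM in WT hippocampus (median 36.7) and between 29.7 and 44.0 CPM in WT cortex (median 36.9). Every cerebellar library was above every library of the other regions, and hippocampus and cortex overlapped over most of their range. Vim was 2.25 ± 0.11 log2 units higher in cerebellum than in cortex (adjusted p = 3.2e-12), while hippocampus against cortex gave 0.06, with a 95% interval from -0.18 to 0.29. In KO mice the cerebellum held 147 to 377 CPM (median 181), the hippocampus 26.2 to 39.7 CPM (median 32.2) and the cortex 23.7 to 76.6 CPM (median 34.3). The top values in cerebellum and cortex were those of Cb replicate 2 and Co replicate 3.

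Aqp4, the water channel of astrocyte endfeet, was also highest in the cerebellum. WT libraries lay between 319.8 and 423 CPM there (median 398), between 148 and 194 CPM in the hippocampus (median 159.9) and between 121 and 154 CPM in the cortex (median 136). The 3 regions fell in this order in the means, with a slight overlap of hippocampus and cortex. Cerebellum against cortex gave a log2 fold change of 1.50 ± 0.06 (adjusted p = 1.5e-13), and hippocampus against cortex 0.26 ± 0.06 (adjusted p = 0.0011). KO libraries held 162 to 394 CPM in the cerebellum (median 356), 163 to 208 CPM in the hippocampus (median 189.7) and 26.4 to 170.5 CPM in the cortex (median 155).

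Slc1a2 and Slc1a3 encode the glutamate transporters GLT-1 and GLAST, and they were arranged in opposite ways. Slc1a2 lay between 4207 and 4867 CPM in WT cortex (median 4381), between 3664 and 4362 CPM in WT hippocampus (median 3946.5) and only between 1034 and 1179.9 CPM in WT cerebellum (median 1111). Slc1a3 lay between 1613 and 1815 CPM in WT cerebellum (median 1681), against 751 to 808 CPM in WT hippocampus (median 765) and 693 to 833 CPM in WT cortex (median 739.6). For both genes the cerebellum was clear of the other regions. Cerebellum against cortex gave -2.02 ± 0.04 log2 units for Slc1a2 (adjusted p = 8.6e-18) and 1.17 ± 0.04 for Slc1a3 (adjusted p = 3.0e-15). In KO mice Slc1a2 lay between 527 and 1076 CPM in the cerebellum (median 921), 3734 and 4192 CPM in the hippocampus (median 4005) and 1873 and 4930.2 CPM in the cortex (median 4173). Slc1a3 in KO mice lay between 1168 and 1712 CPM (median 1653), 745 and 847 CPM (median 825) and 464 and 879.7 CPM (median 761) in the same order of regions. The lowest cerebellar value of both genes was Cb replicate 2, and the lowest cortical value of both was Co replicate 3.

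The enzymes split the same way as the transporters. Glul encodes glutamine synthetase, which turns the glutamate that is taken up into glutamine. It lay between 631 and 835 CPM in WT cerebellum (median 789), between 1268 and 1597 CPM in WT hippocampus (median 1468) and between 1536 and 1769.8 CPM in WT cortex (median 1576), a log2 fold change of -1.10 ± 0.04 for cerebellum against cortex (adjusted p = 2.5e-14). The WT cerebellum was clear of the other regions, which overlapped. KO libraries held 652 to 751 CPM (median 681) in cerebellum, 1322 to 1530.5 CPM (median 1485) in hippocampus and 1218 to 1786 CPM (median 1531) in cortex. Aldoc encodes the brain aldolase of glycolysis and is also known from stripes of cerebellar Purkinje cells. It lay between 1579.5 and 1728 CPM in WT cerebellum (median 1636), 659 and 833 CPM in WT hippocampus (median 718) and 742 and 946 CPM in WT cortex (median 778). Cerebellum against cortex was 1.01 ± 0.04 log2 units (adjusted p = 5.7e-14), again with no overlap of cerebellum and the other regions. KO libraries held 1434 to 2258 CPM (median 1612), 653 to 745 CPM (median 706) and 768 to 901 CPM (median 792) in the same order. Aldh1l1, the folate enzyme used as a general astrocyte marker, varied least between cerebellum and cortex. Its WT range was 61.4 to 76.5 CPM in cerebellum (median 68.3), 42.5 to 54.3 CPM in hippocampus (median 49.8) and 68.9 to 80.3 CPM in cortex (median 75.1). The difference of cerebellum and cortex, -0.13 ± 0.05 log2 units (adjusted p = 0.029), lost its call under library totals (adjusted p = 0.14), without a filter (0.070) and without the mouse as a block (0.057). Hippocampus against cortex was -0.60 ± 0.05 log2 units (adjusted p = 2.7e-08), and hippocampus was clear of both other regions. KO libraries held 62.2 to 74.4 CPM (median 65.3) in cerebellum, 43.1 to 50.9 CPM (median 46.1) in hippocampus and 63.5 to 77.2 CPM (median 70.6) in cortex.

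S100b, the calcium-binding protein of astrocytes and Bergmann glia, resembled Vim. WT cerebellum held 350.4 to 413 CPM (median 381), against 81.7 to 94.1 CPM in WT hippocampus (median 89.0) and 89.6 to 101 CPM in WT cortex (median 97.4). The cerebellum was clear of both, at 1.98 ± 0.04 log2 units above cortex (adjusted p = 2.4e-17), and hippocampus and cortex overlapped. KO libraries held 359 to 946 CPM in the cerebellum (median 401), 92.2 to 100.5 CPM in the hippocampus (median 95.9) and 108 to 339 CPM in the cortex (median 113).

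**Figure D2:**
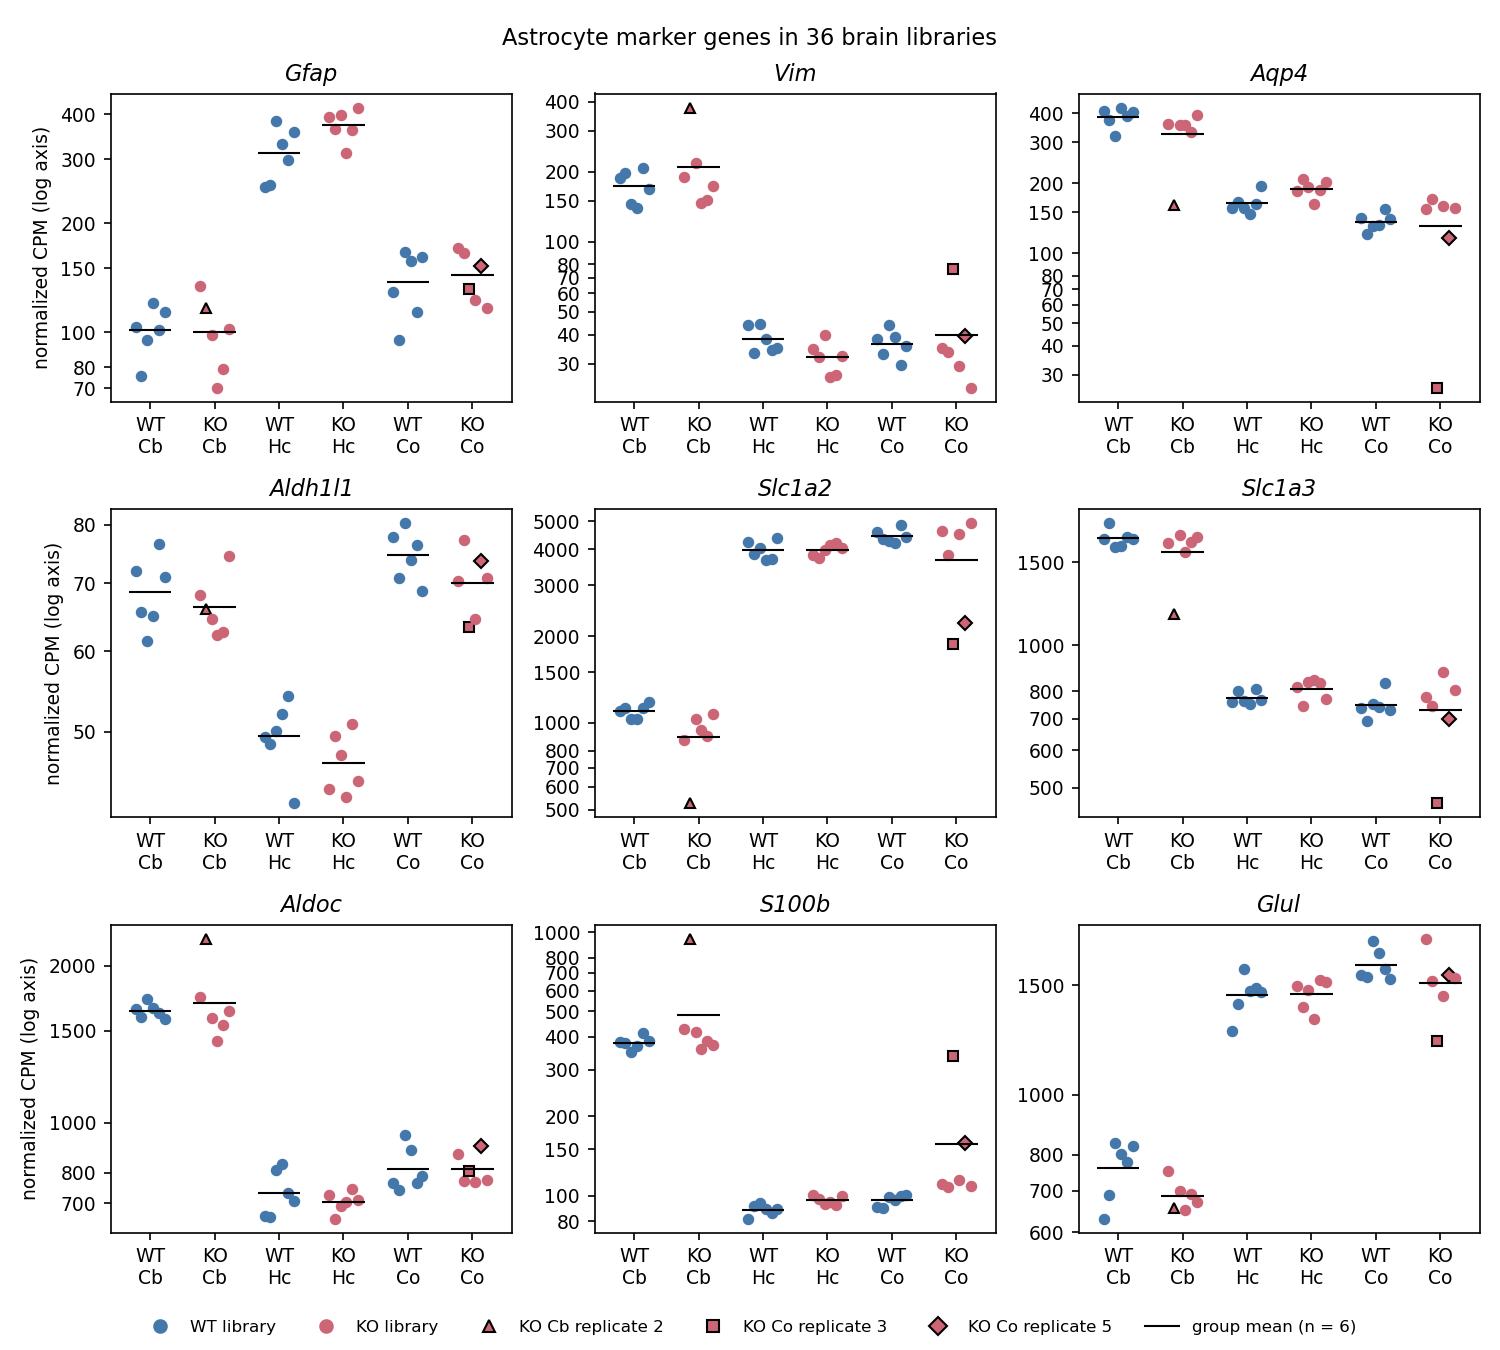
Normalized CPM (log axis) of the 9 genes in each of the 36 brain libraries, by genotype and region, with group means as bars. Gfap is highest in the hippocampus, Vim, Aqp4, Slc1a3, Aldoc and S100b in the cerebellum; black-edged symbols mark KO Cb replicate 2, KO Co replicate 3 and KO Co replicate 5.

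The knockout was compared with WT within each region. No astrocyte gene was called: 0 of 9 in the cerebellum, the hippocampus and the cortex by edgeR at an adjusted p under 0.05, and 0 of 9 in each by DESeq2. The background was low as well, with 0.0817%, 0.165% and 0.0557% of all genes tested called in the same order. At an unadjusted p under 0.05 the counts were 1 of 9, 4 of 9 and 1 of 9, where 5.85%, 7.70% and 7.39% of all genes passed. The median log2 fold change of the 9 genes was -0.05, -5.2e-05 and -0.04, beside 0.00041, 0.00018 and 0.0058 over all genes. The 95% intervals show which sizes the data leave possible. In the hippocampus, where no library stood apart, they reached no further than 0.49 log2 units from 0 for any of the 9 genes.

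In the hippocampus the filament genes lay on opposite sides of 0. Gfap was 313 to 417 CPM in KO against 252 to 384 CPM in WT mice. All 6 KO libraries were above the WT mean, but the ranges overlapped. The log2 fold change was 0.25 ± 0.10 (95% interval 0.03 to 0.47; adjusted p = 0.60), with p = 0.054 in a two-sided exact permutation test. Vim was 26.2 to 39.7 CPM in KO against 33.3 to 44.5 CPM in WT, with 5 of 6 KO libraries below the WT mean. Its log2 fold change was -0.26 ± 0.11 (95% interval -0.49 to -0.04; adjusted p = 0.60; exact permutation p = 0.054). Neither gene passed the adjusted threshold. Summed markers of fibroblasts and meninges, which also contain Vim-expressing cells, lay between 23.8 and 113 CPM in KO and 56.0 and 117 CPM in WT hippocampus, and their part in the Vim values was not tested.

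The reactive astrocyte lists were read beside the filament genes in the hippocampus. The summed CPM of the 11 pan-reactive genes had a median of 200.1 in KO (111 to 235) and 135 in WT mice (102 to 204), and that of the A2 genes 86.6 in KO (64.9 to 111) and 69.0 in WT mice (61.6 to 73.5). The A1 sum was at 167 and 157. Most of the pan-reactive sum was Serpina3n, with a mean of 142 CPM in KO and 92.4 CPM in WT mice. The largest part of the A2 sum was Ptgs2, with a mean of 49.1 CPM in KO and 33.7 CPM in WT mice. Differences of these sums therefore do not describe the lists as a whole. All 3 sums overlapped between the genotypes, and 0 of 9, 0 of 10 and 0 of 11 tested genes were called by edgeR, with median log2 fold changes of -0.08, 0.08 and -0.12. Members went both ways, such as Serpina3n at 0.62 ± 0.32 (adjusted p = 0.68) and Hspb1, a small heat shock protein gene, at -0.84 ± 0.22 (adjusted p = 0.27). Cd109 of the A2 list was 9.92 to 17.7 CPM in KO and 5.38 to 8.82 CPM in WT mice, ranges that did not overlap, as for 0.674% of 16176 genes in either direction. Its log2 fold change was 0.74 ± 0.15 (edgeR adjusted p = 0.095). Serpina3n, Ptgs2, Hspb1 and Cd109 were taken up here after their values were seen.

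The other hippocampal genes at an unadjusted p under 0.05 were Aqp4 and S100b. Aqp4 had a log2 fold change of 0.20 ± 0.07 (95% interval 0.06 to 0.35; adjusted p = 0.49; exact permutation p = 0.032), with 5 of 6 KO libraries above the WT mean. S100b had 0.11 ± 0.04 (95% interval 0.04 to 0.19; adjusted p = 0.47; exact permutation p = 0.0087), with 6 of 6 above, although the lowest KO libraries lay below the highest WT library. The remaining 5 genes had fold changes between -0.09 for Aldh1l1 and 0.06 for Slc1a3. With all libraries, 27 permutation tests were run on the 9 genes in 3 regions. Further ones were run on the 9 genes in cerebellum and cortex without the outlying libraries. The p-values of all these tests are not adjusted.

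In the cerebellum Gfap did not separate the genotypes, at 70.2 to 134 CPM in KO and 75.7 to 121 CPM in WT mice, a log2 fold change of -0.03 ± 0.16 (95% interval -0.36 to 0.31; adjusted p = 0.94). Vim gave 0.26 ± 0.21 (adjusted p = 0.60), which shrank to 0.02 ± 0.12 without Cb replicate 2. S100b likewise went from 0.35 ± 0.21 (adjusted p = 0.58) to 0.05 ± 0.05. Slc1a2 was the gene with an unadjusted p under 0.05, at 0.049, and all 6 KO libraries were under the WT mean. Under RLE factors, no filter, at least 10 counts in every library, robust empirical Bayes and the replicate block, 0 of 9 genes passed that level. Its values of 527 to 1076 CPM in KO and 1034 to 1179.9 CPM in WT overlapped, the log2 fold change was -0.30 ± 0.14 (adjusted p = 0.58) and the exact permutation p was 0.0087. Without Cb replicate 2 the fold change was -0.19 ± 0.06 (adjusted p = 0.26; exact permutation p = 0.017 over 462 divisions). Glul was also under the WT mean in 6 of 6 KO libraries, at -0.15 ± 0.08 (adjusted p = 0.58; exact permutation p = 0.093).

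In the cortex the sign of several genes depended on the outlying libraries. Leaving out Co replicate 3 alone turned the sign of Vim, Aqp4 and Slc1a3, and leaving out Co replicate 5 alone did not. Gfap, at 117 to 171 CPM in KO and 95.2 to 166 CPM in WT mice, gave 0.06 ± 0.15 log2 units (95% interval -0.27 to 0.39; adjusted p = 0.81) and 0.07 ± 0.16 without Co replicates 3 and 5. Vim gave 0.11 ± 0.24 (adjusted p = 0.78) with them and -0.27 ± 0.12 (adjusted p = 0.98) without them. Aqp4 went from -0.07 ± 0.32 (adjusted p = 0.91) to 0.23 ± 0.06 (adjusted p = 0.54), Slc1a3 from -0.04 ± 0.13 to 0.10 ± 0.05, and Slc1a2 from -0.28 ± 0.22 to 0.01 ± 0.06. Neither set of fits called any of these genes.

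S100b in the cortex was the gene whose groups did not overlap. The KO libraries were at 111, 108, 339, 114, 158 and 109 CPM, and the WT libraries at 90.8, 89.6, 98.3, 96.5, 99.7 and 101 CPM. Every KO value was above every WT value. Ranges of KO and WT did not overlap, in either direction, for 0.593% of the 16176 genes tested in all 3 regions. The log2 fold change was 0.70 ± 0.27 (95% interval 0.13 to 1.28; edgeR adjusted p = 0.47), and the exact permutation p of 0.0022 is the smallest the design allows. Leaving out Co replicates 3 and 5 could not make these groups overlap. Their separation without the 2 libraries, as for 1.02% of genes in either direction, therefore adds no support. The exact permutation p of 0.0095 over 210 divisions rests on that separation and adds none either. In the remaining 4 KO libraries the fold change was 0.20 ± 0.04 (adjusted p = 0.20). In these 4 KO libraries Aqp4 did not overlap with WT either, at 155 to 170.5 CPM against 121 to 154 CPM.

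**Figure D3:**
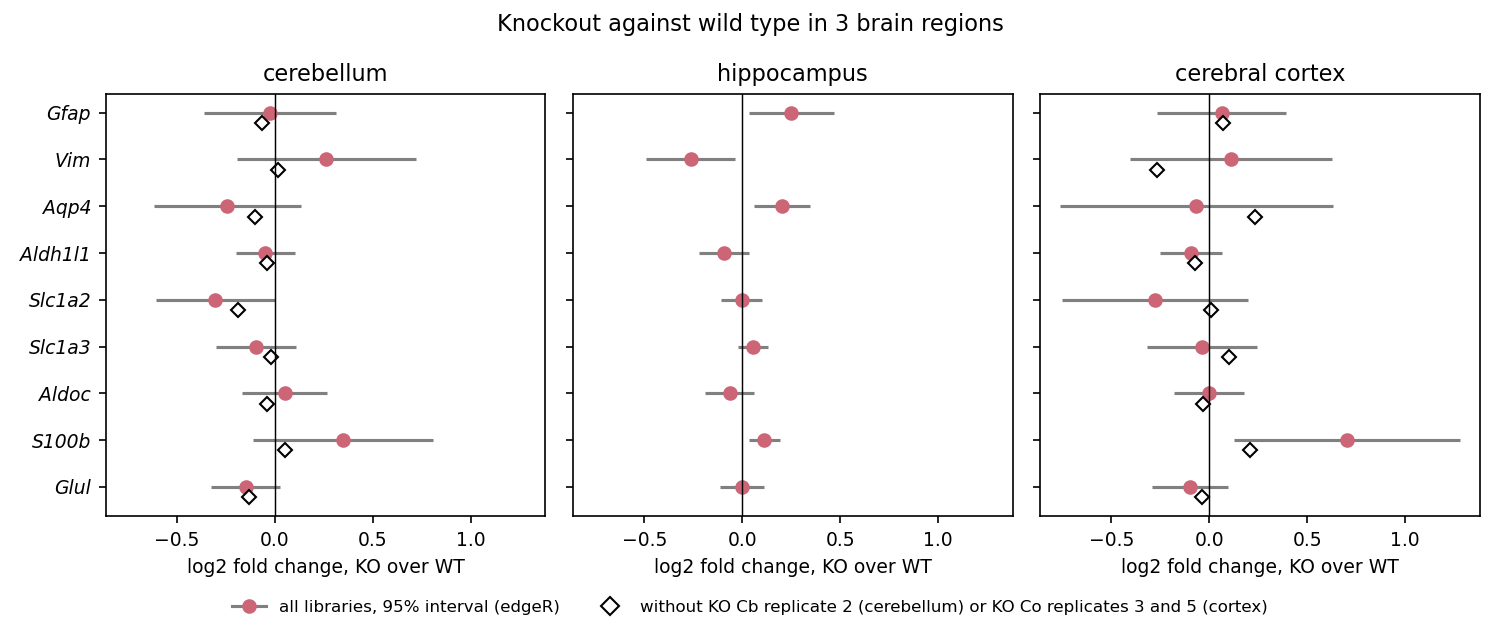
Log2 fold change of KO over WT for the 9 genes in each region: filled points and bars are edgeR estimates with 95% intervals over all libraries, open diamonds the estimates without KO Cb replicate 2 (cerebellum) or without KO Co replicates 3 and 5 (cortex). Most intervals include 0, and in the cortex the diamonds of Vim, Aqp4, Slc1a2 and Slc1a3 lie across 0 from the filled points.

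Within KO mice the cerebellum differed from the other regions for most of the 9 genes. Cerebellum against cortex gave 5 genes higher and 3 lower, where 24.2% and 28.2% of 18457 genes were called higher and lower. Cerebellum against hippocampus also gave 5 higher and 3 lower (25.0% and 27.5% of all genes). Hippocampus against cortex gave 1 higher and 1 lower (8.79% and 10.3%), namely Gfap at 1.39 ± 0.12 log2 units (adjusted p = 4.0e-06) and Aldh1l1 at -0.59 ± 0.07 (adjusted p = 7.7e-05). Without the 3 outlying libraries 7 of 9 were called in that comparison, as were 8599 of all 18834 genes tested. Aqp4 then was at 0.26 ± 0.05 (adjusted p = 0.0011) and S100b at -0.19 ± 0.05 (adjusted p = 0.0073), against 0.61 ± 0.34 and -0.60 ± 0.28 with them. The WT values of the 2 genes were 0.26 and -0.12. Slc1a2 and Vim had the opposite sign to WT with all libraries, at 0.17 ± 0.22 against -0.16 for Slc1a2 and -0.25 ± 0.21 against 0.06 for Vim, and were at -0.18 ± 0.06 and 0.05 ± 0.08 without the 3.

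**Figure D4:**
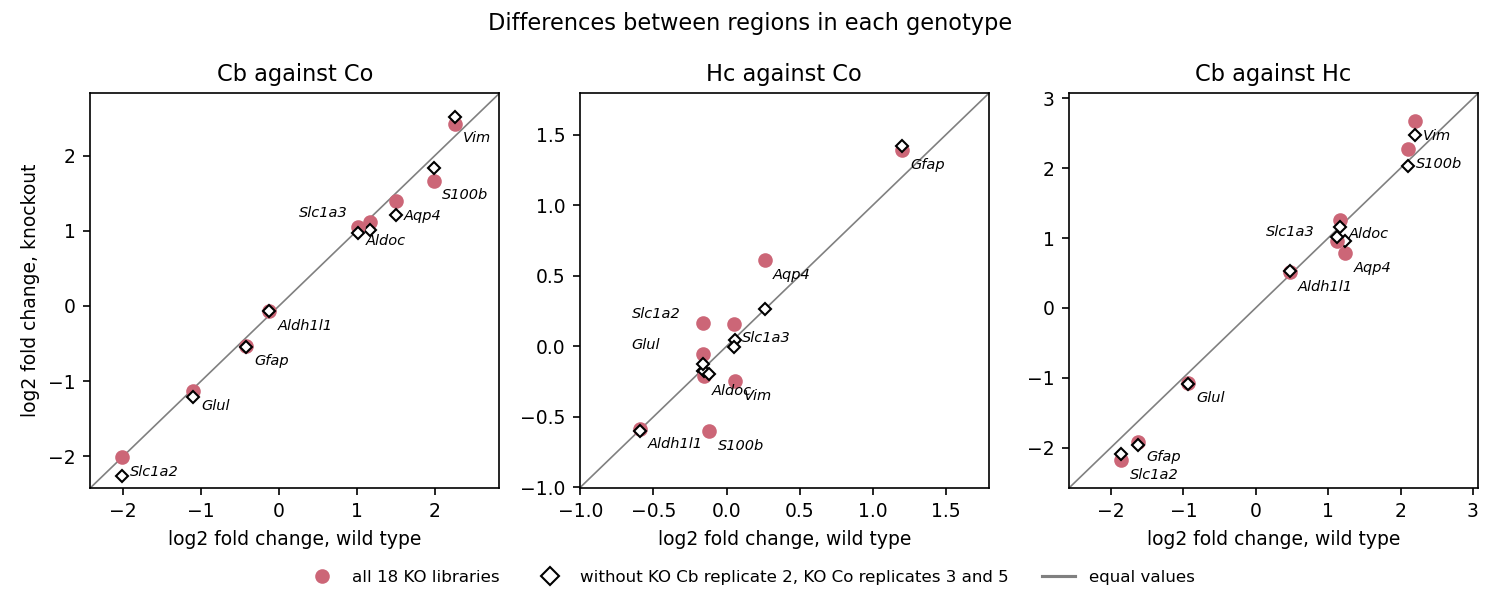
Log2 fold changes between regions for the 9 genes in WT (horizontal axis) and KO mice (vertical axis), one panel for each pair of regions, with all KO libraries (filled) and without the 3 outlying ones (open); the line marks equal values. In hippocampus against cortex, S100b, Aqp4, Slc1a2 and Vim lie off the line with all libraries and near it without the 3.

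Whether the knockout effect differed between regions was tested as an interaction with each mouse as a block. In edgeR 0 of 9 genes were called for cerebellum minus cortex, hippocampus minus cortex or cerebellum minus hippocampus, where 0.0103%, 0% and 0.0258% of 19388 genes were called. At an unadjusted p under 0.05 the counts were 0, 0 and 1 of 9, against 3.72%, 4.42% and 3.72% of all genes. With all libraries that 1 gene was Gfap, whose knockout effect was 0.31 log2 units smaller in the cerebellum than in the hippocampus (-0.31 ± 0.14; 95% interval -0.61 to -0.02; adjusted p = 0.88). Vim differed by 0.47 ± 0.25 in the same contrast (95% interval -0.05 to 0.99; adjusted p = 0.88) and by 0.28 ± 0.15 without the 3 outlying libraries, where Gfap was -0.34 ± 0.13 (adjusted p = 0.39). Without the 3 libraries 4, 0 and 4 of 9 genes passed an unadjusted p under 0.05, as did 2135, 1326 and 1919 of 19667 genes, and 0 of 9 were called. DESeq2 was not run for the interactions.

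The genes did not vary together as 1 programme from library to library. After each group mean was subtracted, the 36 pairs of the 9 genes had Pearson r from -0.90 to 0.88 over the 36 libraries, with 6 pairs above 0.5 and 6 below -0.5. The strongest negative pair was Aqp4 with S100b and the strongest positive one Aqp4 with Slc1a3. Without the 3 outlying libraries the range shrank to -0.28 to 0.67, with 3 pairs above 0.5 and 0 below -0.5: Gfap with Aldoc at 0.67, Aldoc with Glul at 0.62 and Gfap with Glul at 0.59. These correlations describe libraries that share mice, regions and depth.

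The genes most like Gfap in level over the 36 libraries, among 16167 others tested in every region, were Cttn (Pearson r = 0.97), Olfml2b (0.95), Slc9a2 (0.95), Ccdc71l (0.95) and Napepld (0.95). After group means were subtracted they were Stt3b (0.76), Olig2 (0.74), Lcat (0.72), Gm13337 (0.72) and Gjb1 (0.72). Olig2 and Gjb1 are known from oligodendrocyte lineage cells. The 5 genes most like Vim in level were Polg2, Ggact, Timp4, Nsg1 and Mif4gd, all with r of 0.98. After group means were subtracted they were Lgals1 (0.90), Mgp (0.89), Anxa2 (0.88), Crip1 (0.88) and Pdlim4 (0.88), and without the 3 outlying libraries Lgals1 was at 0.69 and Mgp at 0.66. The basement membrane gene Nid1 then led at 0.71.

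Related gene lists were read beside the 9 genes. In the knockout comparisons 0 of the 130 tested genes of 16 other lists were called in the cerebellum, and 0 of 131 in the hippocampus and in the cortex. Between WT regions their counts are to be read against the 39.2% and 42.0% of all genes called higher and lower in cerebellum than in cortex. Of 32 other astrocyte genes, 15 were higher and 12 lower in cerebellum than in cortex, with a median log2 fold change of 0.02, so that the shares were near those of all genes. Gpc5, a glypican, was lower by -2.81 ± 0.05, as was the glutamate receptor gene Grm3 by -1.70 ± 0.05. Chrdl1, a secreted BMP antagonist, was -2.30 ± 0.12 for hippocampus against cortex, and Etnppl 2.59 ± 0.09 for cerebellum against hippocampus. Of 5 Bergmann glia genes 4 were higher in cerebellum than in cortex and 0 lower. They were led by Dao, the D-amino acid oxidase, at 9.96 ± 0.20 and Gdf10 at 4.60 ± 0.05, with Hopx at 1.96 ± 0.09. Dao averaged only 0.063 CPM in WT cortex, so the size of its fold change is poorly fixed. Sept4 was 1.95 ± 0.05 for cerebellum against hippocampus.

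The reactive lists had no common direction between WT regions, and their counts too stand beside 39.2% of all genes higher and 42.0% lower in cerebellum than in cortex. Of 11 genes raised in most reactive astrocytes, 3 were higher and 4 lower in cerebellum than in cortex. Serpina3n, a protease inhibitor, was 4.95 log2 units lower in cerebellum than in hippocampus (-4.95 ± 0.15), while Timp1 was 2.23 ± 0.32. Timp1 was near 0 in both, with means of 0.53 CPM in WT cerebellum and 0.11 CPM in WT hippocampus. Against cortex, Cd44 was 1.37 ± 0.13 and S1pr3 -1.35 ± 0.08. Of 11 A1 genes tested 3 were higher and 5 lower in cerebellum than in cortex, with Serping1 of the complement system at 2.10 ± 0.09. Fkbp5, a glucocorticoid-responsive gene, was -3.36 ± 0.05 and H2-D1, of MHC class I, 2.13 ± 0.04 for cerebellum against hippocampus, and Amigo2 was 1.71 ± 0.07 for hippocampus against cortex. Of 9 A2 genes tested 1 was higher and 4 lower. Against hippocampus, the cerebellum had B3gnt5 at 5.31 ± 0.12 and the prostaglandin synthase gene Ptgs2 at -4.91 ± 0.21, with Sphk1 at 1.90 ± 0.18. Cd109 was 3.09 ± 0.16 for hippocampus against cortex. Of 13 genes of the glutamate and glutamine cycle 6 were higher and 7 lower in cerebellum than in cortex. Slc1a6, the Purkinje cell glutamate transporter, was 4.37 ± 0.05 for cerebellum against hippocampus, and Slc1a1, the neuronal one, was -2.57 ± 0.04. Of 7 intermediate filament partners 2 were higher and 4 lower in cerebellum than in cortex, among them Nes at -0.72 ± 0.10 and, against hippocampus, Synm at -1.65 ± 0.05, which differs in sign from Vim.

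Markers of other cells differed between WT regions beside the astrocyte genes. In cerebellum against cortex, where 42.0% of all genes were called lower and 39.2% higher, 6 of 6 microglia, 3 of 3 oligodendrocyte precursor, 5 of 5 endothelial and 5 of 5 mural cell markers were lower, with median log2 fold changes of -2.01, -1.68, -0.35 and -0.39. The 6 neuron markers gave 3 higher and 3 lower, the 6 oligodendrocyte markers 2 higher and 0 lower, the 5 fibroblast and meningeal markers 3 higher and 0 lower, the 4 ependymal markers 1 higher and 2 lower and the 5 choroid plexus markers 0 higher and 3 lower. How far cell composition enters the regional values of the astrocyte genes was not tested. The 36 heart libraries were atria and ventricles of WT, KO and heterozygous Gnb5+/- mice, with counts scaled to library totals. Over all of them the medians were 0.236 CPM for Gfap, 0.289 for Aldoc, 0.894 for Slc1a2 and 1.20 for S100b. Glul at 287 CPM and Vim at 259 CPM were expressed in heart too. Both differed between the chambers. Medians in WT atria and ventricles were 200 and 359 CPM for Glul, and 424 and 150 CPM for Vim.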

How the data were processed

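RNA of 3 brain regions from 6 WT and 6 KO mice was used, 36 of 72 libraries. Groups, replicate and mouse numbers came from the sample labels. The deposited files hold read counts per gene, which the authors made without normalization with htseq-count (HTSeq 0.9.1) from single-end reads, after adapters were trimmed with cutadapt 1.8, rRNA and low-complexity sequences were screened out and the rest was mapped with STAR 2.5.3a to GRCm38. Symbols, coordinates and exon lengths came from GENCODE M21 (53620 of 53715 identifiers matched, 95 not). Precision was read from the spread between mice, which includes counting error.

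Counts were filtered (filterByExpr, minimum 10), TMM-normalized and tested with edgeR's quasi-likelihood test (edgeR 4.0.16, R 4.3.3), with genotype alone within a region, and with mouse as a block between regions and for interactions. P-values were Benjamini-Hochberg adjusted over all genes tested, at a threshold of 0.05. Errors are SE. Intervals are 95%. Single genes were compared on log2 CPM (prior count 2) by exact permutation over mice (scipy 1.17.1). The same mouse's deviations in 2 regions had a median correlation between 0.26 and 0.37, with a lowest value of -0.58, over 12 mice.

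Alternatives were DESeq2 1.42.0, RLE factors, library totals, other filters, a block for replicate number (or none for mouse), robust empirical Bayes, and left-out libraries. The members and lists (other astrocyte, Bergmann glia, pan-reactive, A1, A2, glutamate and glutamine cycle, intermediate filament and 9 cell type lists) were chosen with earlier results of these data known. Named were all members, up to 4 genes per list by fold change between WT regions, and the 5 genes most correlated with Gfap and with Vim. Gnb5, Gabra6, the reactive genes given for KO hippocampus and genes that lead the correlations without the outlying libraries were named outside this rule, after their values were seen.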

Additional observations from a re-analysis of the deposited data

Results flagged for a closer look

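In 54 combinations of gene and group, 6 values of the astrocyte genes lay far from the other 5 libraries of their group, where chance flags about 1 in 20 groups. All 6 came from 2 KO libraries that stood apart in the whole transcriptome. In Cb replicate 2, Vim was 377 CPM against 147 to 219 CPM in the other KO cerebella, and S100b was 946 CPM against 359 to 427 CPM. In the same library Aqp4 was 162 CPM against 333 to 394 CPM, and Slc1a3 was 1168 CPM against 1578 to 1712 CPM. In Co replicate 3, Vim was 76.6 CPM against 23.7 to 39.5 CPM, and S100b was 339 CPM against 108 to 158 CPM. No value of the hippocampal libraries was far from its group, those of the same mice included. No WT library and no value of Gfap, Aldh1l1, Slc1a2, Aldoc or Glul was far from its group in this sense. The rule sets the gap between an extreme value and the next against the range of the group, so 2 outlying libraries can hide each other. Slc1a2 was at 1873 and 2215 CPM in Co replicates 3 and 5, against 3821 to 4930 CPM in the other KO cortices. Aqp4 in Co replicate 3, at 26.4 CPM, was not flagged either, with Co replicate 5 next at 116 CPM.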

How the results depend on the processing

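No knockout comparison called any of the 9 genes under any alternative run. The number of all genes called moved: in the cerebellum from 14 to 49 with DESeq2, and to 62 without KO_Cb replicate 2; in the hippocampus from 29 to 104 with DESeq2; in the cortex from 10 to 25 with DESeq2, to 6 with at least 10 counts in every library, to 22 without KO_Co replicate 3 and to 26 without KO_Co replicates 3 and 5. Signs turned for uncalled genes. In the cerebellum Aldoc was -0.043 without KO_Cb replicate 2. In the cortex, without KO_Co replicate 3, Vim was -0.18, Aqp4 0.15, Slc1a3 0.063 and Aldoc 0.0018; without KO_Co replicate 5 alone they were 0.11, -0.033, -0.028 and -0.034; without replicates 3 and 5, Vim was -0.27, Aqp4 0.23, Slc1a3 0.10 and Slc1a2 0.011; with library totals Aldoc was 0.0030. The cause of these changes was not tested.

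Replicate numbers join different animals of the 2 genotypes, and same-numbered deviations correlated between -0.20 and 0.07, so they pair nothing. With the replicate block, 5 genes were called in the cerebellum, 19 in the hippocampus and 6 in the cortex, and 2 values near 0 turned sign, Glul to 0.0013 in the hippocampus and Aldoc to 0.0013 in the cortex. Without the mouse block between regions, Aldoc in WT hippocampus against cortex lost its call (adjusted p = 0.050), and Aqp4 in KO cerebellum against hippocampus gained one (0.036), as it did with DESeq2 (0.048) and with library totals (0.048). No replicate block in the interaction of cerebellum and cortex gave 4 genes called, against 2.

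For KO hippocampus against cortex, leaving out KO_Cb replicate 2 and KO_Co replicates 3 and 5 raised all calls to 8599 and member calls from 2 to 7, with Vim at 0.045, Slc1a2 at -0.18 and Slc1a3 at -0.0090; without KO_Co replicate 3 alone Slc1a2 was -0.0053. KO cerebellum against hippocampus then had 14656 calls. Interaction calls rose to 15, 3 and 18 for cerebellum minus cortex, hippocampus minus cortex and cerebellum minus hippocampus, and were 4 for the first without KO_Co replicate 3. In that contrast Vim was -0.052 without KO_Cb replicate 2 and 0.34 without KO_Co replicate 3.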
